A study of Mus musculus with 16 samples.

Results

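Confluent 3T3-L1 cells given the adipogenic hormones first go back into division, a phase known as clonal expansion, and only then become fat cells. The chromatin of 10 listed cell cycle genes was examined around this phase, out of the 22350 protein-coding genes annotated on chromosomes 1-19 and X. They encode the D-type cyclins (Ccnd1, Ccnd2 and Ccnd3), cyclin E1 (Ccne1), the cyclin-dependent kinase (CDK) inhibitors p21 (Cdkn1a), p27 (Cdkn1b) and p18 (Cdkn2c), the growth regulator Myc, the S phase transcription factor E2f1 and the pocket protein Rb1. Each gene was given a window of its gene body plus 50 kb on each side in the mouse genome build mm9, and every enriched region ("island") of all 16 deposited lists that overlapped the window was recorded. The windows of Myc and Ccne1 hold no other protein-coding gene, whereas those of E2f1 and Ccnd3 hold 6 and 5.

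In the resting cell, Rb1 and its relatives hold E2F factors inactive. Mitogens raise Myc and the D-type cyclins, whose kinases phosphorylate Rb1. Released E2F then turns on cyclin E and further E2F, while p21 and p27 restrain the kinases and p27 in particular keeps confluent fibroblasts arrested. Acetylation of lysine 27 on histone H3 (H3K27ac) marks active promoters and enhancers. Monomethylation of lysine 4 (H3K4me1) marks enhancers whether active or only primed. SETD5 is a nuclear SET domain protein that the study placed in a complex with the NCoR-HDAC3 co-repressor, and the study asked how it affects acetylation early in adipogenesis.

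All libraries came from 3T3-L1 cells, a clonal mouse preadipocyte line derived from embryonic fibroblasts. Cells were taken as confluent preadipocytes at 0 h, or at 6 h or 48 h after insulin, dexamethasone and isobutylmethylxanthine (MDI). H3K27ac was profiled at 0 h and 48 h in cells transduced with an empty retrovirus and in a stable line expressing V5-tagged SETD5 from a retrovirus. V5 was profiled in cells carrying the tagged protein at 0 h and 6 h. Each of these 6 conditions had 2 libraries, A and B. H3K4me1 (0 h and 48 h) and endogenous SETD5 (0 h and 6 h) had 1 library per time, so their values have no replicate error. The virus label is blank for the V5 A libraries and names the SETD5 virus for the H3K4me1 libraries, which the study describes as plain 3T3-L1 cells. H3K27ac islands lay over the starts of 6 of 6 preadipocyte or fibroblast markers in both libraries of every group and over 0 of 8 markers of leukocyte, endothelial, epithelial and muscle cells in any library. For adipocyte markers the number in both libraries was 2 of 6 at 0 h with either vector, 5 at 48 h with the empty vector and 4 at 48 h in SETD5-V5 cells. The share of cells that had divided or differentiated cannot be told apart from a change within each cell.

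The H3K27ac lists held 31292 to 39949 islands that covered 103 to 122 Mb. The V5 lists held 16054 (A) and 6666 (B) islands at 0 h but 35573 and 27220 at 6 h, and the endogenous SETD5 lists 2132 at 0 h and 3293 at 6 h, so the length called in any window also moves with the size of the list. The lists hold no read counts, and sequencing depth was not analysed here. The quantity compared is therefore the length of the window covered by islands, tested as a percentage of the window with limma across all protein-coding windows that had an island in at least 2 libraries (17869 for H3K27ac and 13825 for V5). A call is a Benjamini-Hochberg adjusted p under 0.05 over all of these windows. With 2 libraries against 2, an exact permutation test cannot go below p = 0.333, so the calls depend on the spread that limma shares across windows.

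**Figure D1:**
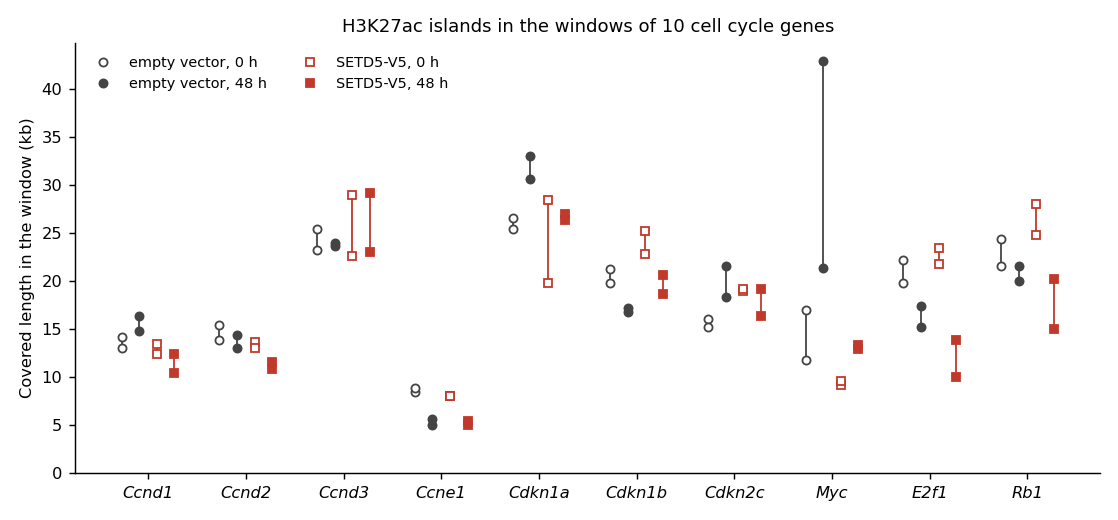
H3K27ac covered length (kb, vertical axis) in the windows of the 10 genes, 1 point per library, with a line joining the A and B libraries of a group. Open symbols are 0 h and filled symbols 48 h, in grey circles for the empty vector and red squares for SETD5-V5 cells. Myc at 48 h with the empty vector (42.9 and 21.3 kb) stands above its other groups, and Ccne1, E2f1 and Cdkn1b lie lower at 48 h than at 0 h with both vectors.

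Between 0 h and 48 h in empty-vector cells, Myc gained H3K27ac coverage and Ccne1 lost it, and the other members did not pass the test. Myc rose by 17.0 percentage points of its window (SE 5.60, limma adjusted p = 0.0492) and Ccne1 fell by 3.01 points (SE 0.688, adjusted p = 0.0121). The Myc call was lost without each of 7 of the 8 libraries in turn. That of Ccne1 was lost without the 48 h A library and with equal numbers of islands per list (-1.83 points, limma adjusted p = 0.210). It was also lost with the number of islands (-1.5 islands, adjusted p = 0.112), and at or above the median score the sign turned (1.46 points, adjusted p = 0.190). Over all windows 36.6% were called in this comparison, 24% higher and 12.6% lower, so 2 called members of 10 is no larger a share than the background. The median change of the members was -0.49 points, against 0.52 points over all windows tested. Counting instead the members whose libraries did not overlap in covered length, 4 were higher at 48 h (Ccnd1, Cdkn1a, Cdkn2c and Myc) where 40.1% of all windows were, and 3 were lower (Ccne1, Cdkn1b and E2f1) where 23.3% were.

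In SETD5-V5 cells the called members were E2f1, Ccne1 and Rb1, and each of them lost coverage. E2f1 fell by 9.68 points (SE 1.68, limma adjusted p = 0.00575), Rb1 by 3.63 points (SE 1.12, adjusted p = 0.0496) and Ccne1 by 2.56 points (SE 0.688, adjusted p = 0.0310). Here 26% of all windows were called, 14.5% higher and 11.5% lower, and the median change was -1.52 points for the members and 0 for all windows. Of the members, 5 lay lower at 48 h without overlap (Ccnd2, Ccne1, Cdkn1b, E2f1 and Rb1; 30.7% of all windows), and only Myc lay higher (32%). The Rb1 call is lost when any 1 of the 8 H3K27ac libraries is left out (change between -4.71 and -2.56 points, limma adjusted p between 0.0624 and 0.247). The Ccne1 call is lost without any 1 of the 4 SETD5-V5 libraries (change between -2.74 and -2.37 points, limma adjusted p between 0.0923 and 0.146), and the change was -0.37 points with equal numbers of islands and -0.27 points at or above the median score (adjusted p = 0.851 and 0.852). With the replicate block neither Ccne1 nor Rb1 was called (limma adjusted p = 0.0566 and 0.0758).

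Between vectors no member passed the test. At 0 h, 1.79% of all windows were called, 0.811% higher and 0.979% lower, and the member nearest to a call was Cdkn1b, 3.33 points higher in SETD5-V5 cells (SE 1.53, limma adjusted p = 0.387). Without overlap at 0 h, 3 members lay higher in SETD5-V5 cells (Cdkn1b, Cdkn2c and Rb1; 24.8% of all windows) and 3 lower (Ccnd2, Ccne1 and Myc; 14.1%). At 48 h, 15.5% of all windows were called, 9.42% lower and 6.08% higher. An unadjusted limma p under 0.05 was found at 3 of the 10 members and at 5405 of the 17869 windows, a similar share. These members were Myc, 18.1 points lower in SETD5-V5 cells (SE 5.60, adjusted p = 0.0709), Ccnd1, 3.82 points lower (SE 1.2, adjusted p = 0.0744), and E2f1, 3.98 points lower (SE 1.68, adjusted p = 0.160). The members' median at 48 h was -2.01 points, against -0.24 points over all windows. Without overlap, 5 members lay lower in SETD5-V5 cells at 48 h (Ccnd1, Ccnd2, Cdkn1a, Myc and E2f1; 33.1% of all windows) and Cdkn1b lay higher (22.4%). The difference of the 48 h change between vectors, tested directly, was called at none of the members and at 4.33% of all windows (1.48% higher and 2.85% lower). These comparisons share groups of libraries and are not independent of each other.

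**Figure D2:**
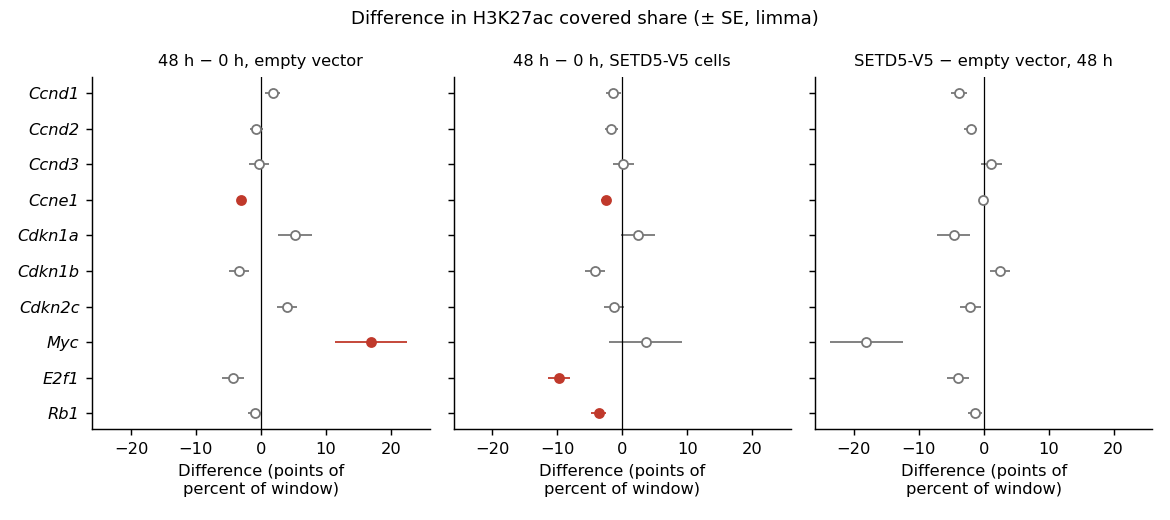
Differences in the percentage of each window covered by H3K27ac islands (horizontal axis, percentage points; points are limma estimates from 2 libraries per group and bars their standard errors). Filled red points have an adjusted p under 0.05: Myc and Ccne1 in empty-vector cells, and Ccne1, E2f1 and Rb1 in SETD5-V5 cells, with none between vectors at 48 h.

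Myc encodes a basic helix-loop-helix leucine zipper factor that drives entry into the cell cycle. With the empty vector its window (chr15:61766946-61871929) was covered over 16.9 kb (A) and 11.7 kb (B) at 0 h and over 42.9 and 21.3 kb at 48 h. The SETD5-V5 libraries covered 9.13 and 9.53 kb at 0 h and 13.3 and 12.9 kb at 48 h. Both empty-vector libraries at 48 h therefore lay above every other H3K27ac library, and the A library was far above B. Without that A library the difference in empty-vector cells was 6.67 points (limma adjusted p = 0.0688). Without any 1 library other than the empty-vector 48 h B, the difference lay between 6.67 and 19.4 points and was not called (limma adjusted p between 0.0688 and 0.209). The call was also lost with equal numbers of islands per list, with 20 kb on each side, without the filter and with the number of islands (limma adjusted p between 0.0648 and 0.167). Leaving out the empty-vector 48 h B library moved the difference between vectors at 48 h to -28.4 points (adjusted p = 0.00180), and the difference of the changes was then called as well (-23.6 points, adjusted p = 0.0117).

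The island over the Myc start was present in all 16 lists except those of H3K4me1 and of endogenous SETD5 at 0 h. Its H3K27ac length with the empty vector was 7.2 kb (A) and 6.8 kb (B) at 0 h and 17.8 and 12.4 kb at 48 h. The SETD5-V5 cells had 6.0 and 6.2 kb at 0 h and 7.4 and 7.0 kb at 48 h. It was longer at 48 h with both vectors, and exceeded 7.4 kb only with the empty vector at 48 h. Nearby islands that join or split change such lengths. Summed over all islands in the merged region at the start, the lengths were 10 and 6.8 kb and then 17.8 and 13.4 kb with the empty vector, and 6.0 and 6.2 kb and then 10.4 and 10 kb in SETD5-V5 cells. The share of islands of the same list that scored higher went from 4.02% and 5.07% at 0 h to 0.294% and 0.507% at 48 h with the empty vector, and from 6.15% and 5.70% to 1.07% and 1.05% in SETD5-V5 cells. By score the start island thus moved toward the top of the list with both vectors.

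Another, broad island began at the downstream edge of the Myc window and covers the start of Pvt1, a long non-coding RNA gene next to Myc. Its full length with the empty vector was 4.0 and 4.4 kb at 0 h and 33.6 and 21.0 kb at 48 h. With SETD5-V5 it was 4.0 and 3.6 kb at 0 h and 3.6 and 8.2 kb at 48 h. The 2 empty-vector libraries at 48 h were again the longest. Islands also joined here. Summed over the whole merged region, which runs past the window, the islands measured 36.8 and 27.2 kb at 0 h and 49.2 and 40.2 kb at 48 h with the empty vector, and 19.4 and 23 kb and then 15.4 and 19.4 kb in SETD5-V5 cells.

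SETD5-V5 coverage of the Myc window was 10.9 kb (A) and 7.2 kb (B) at 0 h and 37.7 and 37.1 kb at 6 h. The groups do not overlap, and only 11.5% of the windows tested had more V5 coverage at 6 h. The V5 island over the start was 8.0 and 2.8 kb long at 0 h and 20.8 and 23.0 kb at 6 h, when 0.309% and 0.522% of the islands of each list scored higher. Over the merged region on the Pvt1 side, V5 islands summed to 10 and 5.0 kb at 0 h and to 58.2 and 50.8 kb at 6 h, the B library at 0 h having its island beyond the window. Endogenous SETD5 had no island in the window at 0 h and 1 island, 9.0 kb long and over the start, at 6 h. The difference in V5 coverage was 27 points (SE 6.22, limma adjusted p = 0.103) and did not pass the test.

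At the resolution of the 200 bp bins that SICER uses, 8.2 kb of the Myc window were acetylated in both empty-vector libraries at 48 h and in neither at 0 h. Of this gained length, 82.9% was in no island of either SETD5-V5 library at 48 h, against 26.1% over the other 9 windows and 30.8% over the genome. Single windows varied. The share was 71.4% of 2.8 kb at Cdkn2c, 80% of 1.0 kb at Rb1 and 100% of 0.2 kb at E2f1. At Ccnd1, Ccnd2, Ccnd3 and Cdkn1a it was 0% to 33.3%, and Ccne1 and Cdkn1b gained no such length. SETD5-V5 at 6 h covered 56.1% of the length gained at Myc in both libraries (43.5% over the other 9 windows, 36.5% over the genome), whereas H3K4me1 at 0 h covered 4.88% (29.3% and 27.4%). V5 covered 17.6 kb of the window in both 6 h libraries and in neither at 0 h, and 2.27% of that length was already acetylated in both empty-vector libraries at 0 h (26% over the genome). The acetylation was measured at 48 h and the V5 signal at 6 h in another transduced population of the line, so the overlap is of position only.

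The gained length included 2 intergenic regions upstream of Myc that were present in both empty-vector libraries at 48 h and absent from both at 0 h and from all 4 H3K27ac libraries of SETD5-V5 cells. The nearer one, 6.15 kb upstream, was 3.6 kb (A) and 2.4 kb (B) long and carried SETD5-V5 in both 6 h libraries. It was among the weakest islands of its lists, with 87.2% and 97.7% of islands scoring higher. The farther one, 31.8 kb upstream, was 3.4 and 2.2 kb long, had 36% and 65.6% of islands scoring higher, and had no SETD5-V5. Neither held H3K4me1 at either time. The sequences of the Myc promoter (250 bases before the 5′-most annotated start) and of the central 300 bases of both regions are given because Myc was the member called higher with the empty vector. The promoter lay in an H3K27ac island in all 8 libraries, and the 2 regions are new at 48 h.

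Myc promoter, chr15:61816696-61816945, mm9, + strand: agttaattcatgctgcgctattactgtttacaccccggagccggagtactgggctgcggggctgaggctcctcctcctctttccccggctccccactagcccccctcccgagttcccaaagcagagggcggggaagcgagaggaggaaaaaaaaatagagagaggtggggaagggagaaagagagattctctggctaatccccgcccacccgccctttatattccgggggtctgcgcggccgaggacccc

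Myc region 6.15 kb upstream, chr15:61810651-61810950, mm9, + strand: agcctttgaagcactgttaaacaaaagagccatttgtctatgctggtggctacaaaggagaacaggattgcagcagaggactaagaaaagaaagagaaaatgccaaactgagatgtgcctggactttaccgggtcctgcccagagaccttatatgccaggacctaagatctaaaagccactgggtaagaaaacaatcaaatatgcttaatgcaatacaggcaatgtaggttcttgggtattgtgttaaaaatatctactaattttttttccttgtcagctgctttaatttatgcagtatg

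Myc region 31.8 kb upstream, chr15:61784951-61785250, mm9, + strand: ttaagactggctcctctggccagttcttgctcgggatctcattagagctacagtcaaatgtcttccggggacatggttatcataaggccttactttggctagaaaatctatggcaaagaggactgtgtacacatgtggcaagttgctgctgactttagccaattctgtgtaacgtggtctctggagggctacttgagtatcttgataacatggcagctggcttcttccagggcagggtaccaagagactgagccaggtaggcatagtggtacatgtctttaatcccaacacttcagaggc

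None of the letters searched on either strand was found in these stretches, so no base is in capitals. The search covered E2F (TTTNNCGC), the E-box (CACGTG), C/EBP (TTGCNNAA), AP-1 (TGANTCA), CRE (TGACGTCA) and TEAD (GGAATG), and none of these motifs contains another.

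The D-type cyclins couple mitogens to CDK4 and CDK6. Ccnd1, the member of the family most closely tied to serum stimulation, was covered by H3K27ac over 14.2 kb (A) and 13.0 kb (B) at 0 h and 14.8 and 16.4 kb at 48 h with the empty vector. In SETD5-V5 cells the lengths were 12.4 and 13.4 kb at 0 h and 12.4 and 10.4 kb at 48 h. At 48 h the vectors did not overlap, the empty vector being higher. This difference of 3.82 points was called when the lists were cut to equal numbers of islands (-5.55 points, limma adjusted p = 0.0179) or to islands at or above the median score (-3.64 points, adjusted p = 0.0456).

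The larger contrast at Ccnd1 was in SETD5-V5. The V5 islands covered 8.2 kb (A) and 0 kb (B) at 0 h and 20.8 and 19.4 kb at 6 h. The 6 h libraries lay above both 0 h libraries and close to each other, a difference of 14.6 points (SE 5.06, limma adjusted p = 0.133). Such a rise without overlap was found at 66.9% of the windows tested, and the median change over all windows was 7.41 points. At 6 h, 33.3% of the windows tested had more V5 coverage than that of Ccnd1. A single island of 18.6 kb (A) and 16.6 kb (B) spanned the start and the gene at 6 h, with 2.33% and 6.22% of islands scoring higher. Endogenous SETD5 had no island in the Ccnd1 window at either time. Of the 9.2 kb that V5 covered in both 6 h libraries and in neither at 0 h, 30.4% was already acetylated in both empty-vector libraries at 0 h, unlike the 2.27% at Myc.

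Distally, the Ccnd1 window exchanged islands. Regions 11.5 kb downstream of the start, within the neighbouring gene Oraov1, and 37.6 kb upstream were induced in empty-vector cells, and a region 41.8 kb upstream was lost. The induced region at 11.5 kb was also present in both SETD5-V5 libraries at 48 h, in both V5 libraries at 6 h and in both H3K4me1 lists. The lost region was lost in both SETD5-V5 libraries too. The Ccnd1 start lay in V5 islands in both 6 h libraries but in only the A library at 0 h.

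**Figure D3:**
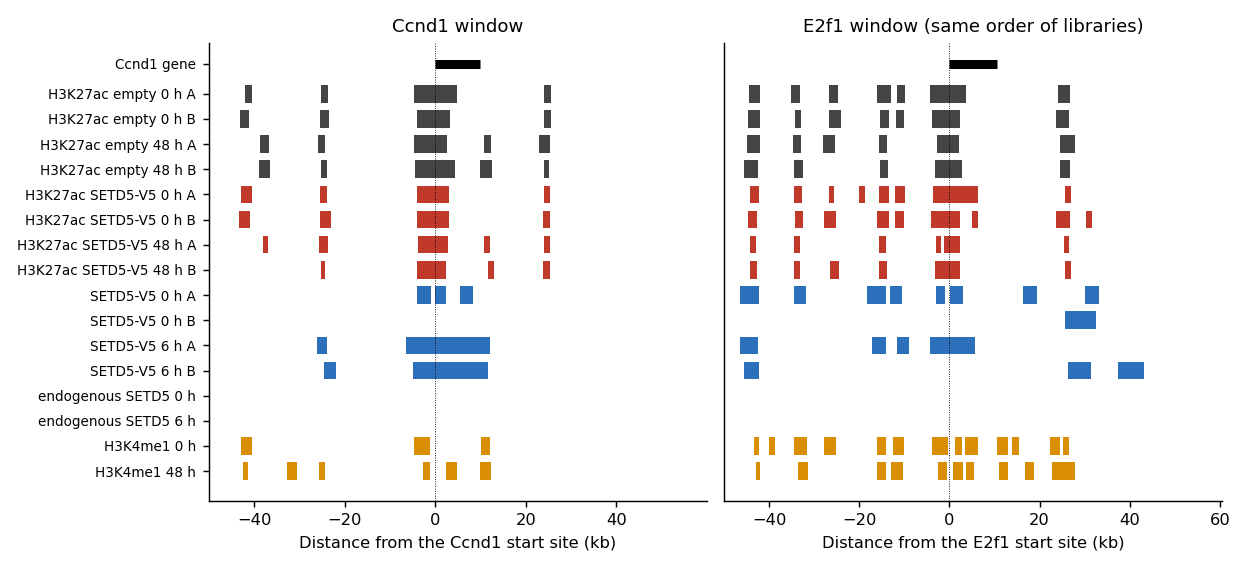
Islands of the 16 lists in the windows of Ccnd1 (left) and E2f1 (right), drawn against distance from each start (kb, positive into the gene), 1 row per library in the same order and the gene at the top. At Ccnd1 the blue SETD5-V5 bars are short or absent at 0 h and span the gene at 6 h (18.6 and 16.6 kb), and at E2f1 the H3K27ac bar over the start is shorter at 48 h than at 0 h.

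Neither Ccnd2 nor Ccnd3 had a called difference in covered length. H3K27ac covered the Ccnd2 window over 15.4 and 13.8 kb at 0 h and 13.0 and 14.4 kb at 48 h with the empty vector, and over 13.6 and 13.0 kb and then 10.8 and 11.6 kb in SETD5-V5 cells. With the empty vector the times overlapped, and in SETD5-V5 cells the 48 h libraries lay below (-1.68 points, SE 1.02, limma adjusted p = 0.285). The Ccnd2 start lay in V5 islands in all 4 V5 libraries, and endogenous SETD5 gave 1 island of 6.2 kb over the start at 6 h and none at 0 h.

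In the Ccnd3 window, H3K27ac covered between 22.6 and 29.2 kb in the 8 libraries, with overlap in every comparison. The number of islands nevertheless went from 9 in each empty-vector library at 0 h to 5 in each at 48 h, and from 9 (A) and 10 (B) to 6 in each in SETD5-V5 cells. Counted this way both decreases passed the test (limma adjusted p = 0.00205 and 0.00350), while the covered length did not differ beyond its spread. By number of islands, 3188 of the 17869 windows were called with the empty vector (1504 lower) and 3196 in SETD5-V5 cells (1295 lower). Part of the decrease was joining, as the merged region at the start held 2 islands in each library at 0 h and 1 at 48 h. With the empty vector, 3 regions inside the gene, 13.6, 17.1 and 23.2 kb from the start, were lost, and all of them carried H3K4me1 at 0 h. Their islands at 0 h had 41.9% to 94.9% of islands scoring higher. The longest H3K27ac island in the window meanwhile was 5.8 kb in both empty-vector libraries at 0 h and 8.2 and 8.4 kb at 48 h. SETD5-V5 covered 22.8 and 8.8 kb at 0 h and 38.4 and 26.8 kb at 6 h, without overlap (8.63 points, SE 5.58, adjusted p = 0.297).

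Cyclin E1, which with CDK2 drives entry into S phase, had the least H3K27ac coverage of the 10. H3K27ac covered the Ccne1 window over 8.4 kb (A) and 8.8 kb (B) at 0 h and 5.0 and 5.6 kb at 48 h with the empty vector. SETD5-V5 cells had 8.0 kb in both libraries at 0 h and 5.4 and 5.0 kb at 48 h. The times did not overlap with either vector, and the vectors overlapped at 48 h (difference -0.09 points, SE 0.688, limma adjusted p = 0.968). The island at the start, 1.8 to 3.0 kb long, stayed in all 8 libraries and was of low to middle rank, with 30.1% to 92.2% of islands scoring higher. With the empty vector that share went from 58.6% (A) and 68.1% (B) at 0 h to 30.1% and 41.7% at 48 h. In SETD5-V5 cells it went from 54.1% and 92.2% to 54.8% and 46.9%. The start island thus ranked higher at 48 h with the empty vector, while the window lost covered length. The loss lay outside the start island. The island next to it upstream went from 3.6 and 3.8 kb to 2.4 and 2.6 kb with the empty vector, and a region 22.1 kb downstream, with H3K4me1 at 0 h, was in both empty-vector libraries at 0 h and in neither at 48 h, while the SETD5-V5 A library kept it. Without the empty-vector 48 h A library the loss in empty-vector cells was not called (-2.74 points, adjusted p = 0.0553), and with islands at or above the median score the sign turned (1.46 points, adjusted p = 0.190). SETD5-V5 gave a single island of 2.2 kb in 1 of 4 libraries, so the window was not tested, and endogenous SETD5 gave none.

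The window of E2f1, an activating E2F and itself an E2F target, had less H3K27ac coverage at 48 h with both vectors, called in SETD5-V5 cells. The window was covered over 22.2 kb (A) and 19.8 kb (B) at 0 h and 17.4 and 15.2 kb at 48 h with the empty vector, a difference of -4.25 points that did not pass the test (SE 1.68, limma adjusted p = 0.0879). With SETD5-V5 it was covered over 21.8 and 23.4 kb at 0 h and 10.0 and 13.8 kb at 48 h. The times did not overlap with either vector, and the SETD5-V5 libraries at 48 h were the lowest of the 8. The fall in SETD5-V5 cells kept its call without each library in turn, but not with islands at or above the median score (-4.98 points, limma adjusted p = 0.143). With equal numbers of islands per list, or with 20 kb on each side, the empty-vector difference was called too (-5.07 points, limma adjusted p = 0.0453, and -8.52 points, adjusted p = 0.0378).

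The island over the E2f1 start was 8.0 and 6.4 kb long at 0 h and 4.8 and 6.0 kb at 48 h with the empty vector, and 9.8 and 6.6 kb and then 3.6 and 5.6 kb in SETD5-V5 cells. The share of islands scoring higher rose from 6.79% and 6.54% to 12.8% and 13.7% with the empty vector, and from 3.23% and 4.03% to 17.9% and 17.0% in SETD5-V5 cells. The start island thus ranked lower at 48 h with both vectors. A region 10.9 kb upstream, with H3K4me1 at both times, was present in all 4 libraries at 0 h and in none at 48 h. SETD5-V5 covered 25.0 and 7.0 kb at 0 h and 19.6 and 14.2 kb at 6 h with overlap, and endogenous SETD5 had no island. As 6 other genes share this window, part of its covered length lies at their exons. Summed over the merged region at the E2f1 start, H3K27ac islands measured 8.0 and 6.4 kb and then 4.8 and 6.0 kb with the empty vector. In SETD5-V5 cells they measured 9.8 and 8.0 kb and then 4.6 and 5.6 kb. Most of the called fall in SETD5-V5 cells thus lay outside the start region.

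Rb1, which holds E2F factors inactive, has the longest gene of the 10 and so the longest window (242150 bp). H3K27ac covered it over 24.4 and 21.6 kb at 0 h and 21.6 and 20 kb at 48 h with the empty vector, which touch at 21.6 kb. In SETD5-V5 cells it covered 24.8 and 28.0 kb at 0 h and 15.0 and 20.2 kb at 48 h, without overlap. The single island over the start went opposite ways in length, from 1.8 and 2.2 kb to 6.6 and 6.4 kb with the empty vector and from 5.6 kb in both to 1.8 and 2.4 kb in SETD5-V5 cells. A neighbouring island joined or split from it. Summed over the merged region at the start, the lengths were 5.4 and 5.2 kb and then 6.6 and 6.4 kb with the empty vector, and 5.6 kb in both and then 4.6 and 5.4 kb in SETD5-V5 cells, so the covered length moved much less than the single island. These lengths were singled out after they were seen and were not tested. Most of the called fall in SETD5-V5 cells thus lay outside the start region, in a window that also holds Rcbtb2, Lpar6 and Itm2b. H3K4me1 fell from 12.0 to 6.40 kb, a 1.88-fold difference between single libraries.

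The E2F letters TTTNNCGC, or their reverse, were found 3 times in the 300 bases around the E2f1 start and once at Rb1 (250 bases before to 50 after), and 6.13% of all 22350 promoters of this length hold them. No other member promoter matched them, and none of the 10 matched the other 5 motifs, which occur in 2.33% (CRE) to 13.4% (TEAD) of promoters. The matches of both genes lie just after the 5′-most annotated start and are shown in capitals with their flanks.

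E2f1, chr2:154395597-154395625, mm9, − strand: cGCGGCAAAaaggaTTTGGCGCGTAAAAg

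Rb1, chr14:73725609-73725638, mm9, − strand: ggaagtgacgtTTTCCCGCggttggcccgg

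Among the CDK inhibitors, Cdkn1b (p27) had the highest-ranking start island of the 10 genes in all H3K27ac libraries except the 2 empty-vector libraries at 48 h, where Myc ranked above it. Its start island was 10.8 to 15.8 kb long, and only 0.205% to 0.956% of the islands of each list scored higher. The window was covered over 19.8 kb (A) and 21.2 kb (B) at 0 h and 16.8 and 17.2 kb at 48 h with the empty vector. The SETD5-V5 libraries were covered over 22.8 and 25.2 kb at 0 h and 18.6 and 20.6 kb at 48 h. The 48 h libraries were lower with both vectors and SETD5-V5 cells were higher at both times, each without overlap, and none of these differences was called (limma adjusted p = 0.134 and 0.0871 for time, 0.387 and 0.326 for vector).

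SETD5 islands lay over the Cdkn1b start in all 4 V5 lists and both endogenous lists. The V5 island there was 13.0 and 8.2 kb long at 0 h and 11.6 and 12.4 kb at 6 h, with 1.81% to 5.10% of islands scoring higher. Endogenous SETD5 had an island of 3.6 kb at 0 h and 8.8 kb at 6 h, and Cdkn1b was the only member whose 5′-most start it covered at 0 h (1.33% of all genes). Its promoter is printed for this reason, and it matched none of the 6 motifs.

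Cdkn1b promoter, chr6:134870169-134870418, mm9, + strand: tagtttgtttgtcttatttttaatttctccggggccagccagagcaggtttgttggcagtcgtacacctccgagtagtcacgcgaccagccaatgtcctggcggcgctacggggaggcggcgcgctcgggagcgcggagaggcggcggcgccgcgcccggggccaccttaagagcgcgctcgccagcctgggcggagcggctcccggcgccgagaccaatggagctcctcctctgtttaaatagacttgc

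Cdkn1a (p21), a target of p53 and of mitogens, had the most SETD5-V5 of the 10. The V5 islands covered 49.5 kb (A) and 40.3 kb (B) at 0 h and 51.7 and 42.1 kb at 6 h, so the times overlapped (1.82 points, SE 9.47, limma adjusted p = 0.887). Over the 2 libraries at 6 h the window was covered to 42.7%, and 7.09% of the windows tested had more. The longest V5 island, 22.2 to 35.6 kb with 0.602% to 1.98% of islands scoring higher, was centred 46.3 to 49.3 kb upstream, where Srsf3, a splicing factor gene, lies. Endogenous SETD5 covered 3.6 kb at 0 h and 11.6 kb at 6 h.

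H3K27ac in the Cdkn1a window was 26.6 and 25.4 kb at 0 h and 33.0 and 30.6 kb at 48 h with the empty vector, and 19.8 and 28.4 kb and then 27 and 26.4 kb in SETD5-V5 cells. With the empty vector the 48 h libraries were higher, and they lay above both SETD5-V5 libraries at 48 h, but neither difference was called (limma adjusted p = 0.159 and 0.279). With islands at or above the median score the difference in empty-vector cells was called (9.29 points, adjusted p = 0.0423). Cdkn1a was also the only member with an H3K4me1 island over its 5′-most start, 3.0 kb at 0 h and 5.2 kb at 48 h. Its window held 36.4 and 51.7 kb of H3K4me1, the most of the 10.

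Cdkn2c (p18), an inhibitor of CDK4 and CDK6, was the reverse, with no H3K4me1 island at 0 h and 1 of 1.8 kb at 48 h. Its H3K27ac coverage was 16 and 15.2 kb at 0 h and 21.5 and 18.3 kb at 48 h with the empty vector, and 19 and 19.2 kb and then 16.4 and 19.1 kb in SETD5-V5 cells. The empty-vector libraries lay higher at 48 h without overlap and those of SETD5-V5 cells overlapped. The empty-vector difference was 4.06 points (SE 1.57, limma adjusted p = 0.0828), and the difference of the changes, -5.32 points, was not called (SE 2.23, adjusted p = 0.225). SETD5-V5 overlapped between times, and endogenous SETD5 gave no island.

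Taking the promoters as a group, an H3K27ac island lay over the 5′-most start in all 8 libraries at 9 of the 10 genes, where 38.1% of all genes had one. The exception is Ccnd3, whose 5′-most start lies outside the nearby island in 6 of 8 libraries. Counting any annotated start, all 10 had an island in all 8 libraries (41.4% of all genes). The further Ccnd3 start lies in a region 91.9 kb downstream that also holds exons of Bysl. SETD5-V5 lay over the start in both libraries at 4 members at 0 h (Ccnd2, Cdkn1a, Cdkn1b and Myc; 2.66% of all genes) and at 5 at 6 h, with Ccnd1 added (15.6%). Counting any annotated start, V5 lay over 8 of the 10 in both 6 h libraries (19.4% of all genes) and endogenous SETD5 over 2 at 0 h (1.79%) and 4 at 6 h (6%). For V5 these starts were not always at the promoter. At Ccnd3 only the start in the region shared with Bysl was covered. In the 6 h B library the only Rb1 start covered lies 87.0 kb downstream, in a region that also holds exons of Lpar6. Endogenous SETD5 covered 1 start at 0 h and 3 at 6 h (Ccnd2, Cdkn1b and Myc; 4.62%). H3K4me1 covered 1 start at each time (8.11% at 0 h and 11.6% at 48 h). The 10 genes were listed for their role in proliferating cells, and the comparison with all genes includes silent ones.

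**Figure D4:**
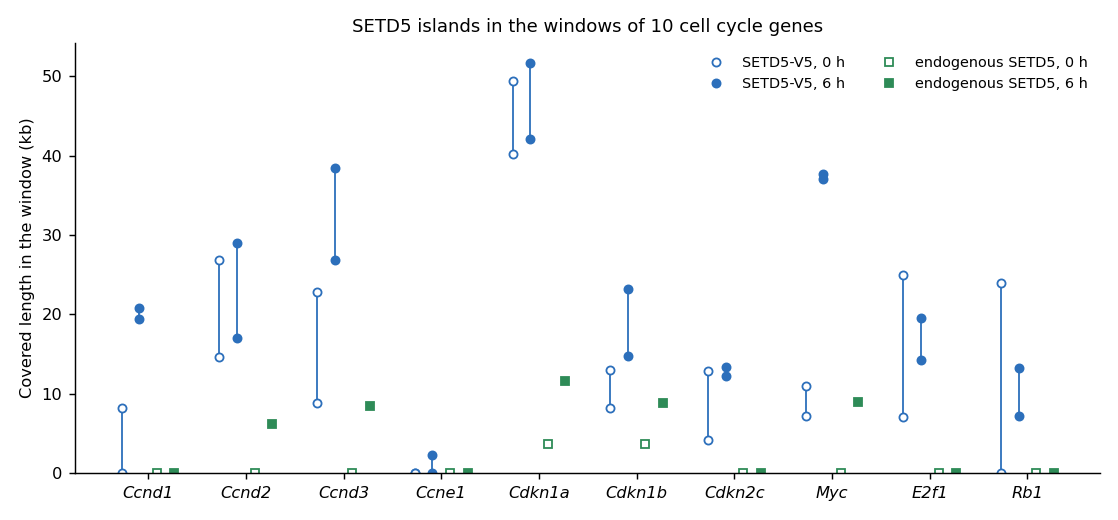
SETD5 covered length (kb, vertical axis) in the windows of the 10 genes, 1 point per library, with lines joining the A and B libraries of SETD5-V5. Blue circles are SETD5-V5, green squares endogenous SETD5, open at 0 h and filled at 6 h. Ccnd1, Ccnd3, Cdkn1b and Myc have both 6 h V5 libraries above both 0 h libraries, Cdkn1a is high at both times, and 5 genes have no endogenous SETD5.

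For SETD5-V5 as a whole, no window of the 13825 tested was called between 0 h and 6 h (0% of windows) by limma on this scale, although 4784 had an unadjusted p under 0.05, Myc and Ccnd1 among them. On the scale of log2 covered length, 3060 windows were called and no member was. Without overlap, 4 of the 9 members tested were higher at 6 h (Ccnd1, Ccnd3, Cdkn1b and Myc), where 66.9% of all windows were, and none was lower (1.55%). The median change was 4.04 points for the members and 7.41 points for all windows, so the typical member was below the typical window. Endogenous SETD5 covered more at 6 h in 5 members (Ccnd2, Ccnd3, Cdkn1a, Cdkn1b and Myc) and had no island at either time in the other 5. Over the genome 20.9% of windows held an island at 6 h and 11.2% at 0 h, and among windows with any island 71.1% were over 1.5-fold higher at 6 h and 14.1% over 1.5-fold lower. H3K4me1 was over 1.5-fold higher at 48 h for Ccnd3 (24.4 to 37.4 kb) and Cdkn2c and lower for Rb1, shares of windows that were 32.3% and 17.9% over the genome.

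The H3K27ac islands of the 8 libraries merged into 70 regions across the 10 windows. Of these, 34 were present in both empty-vector libraries at both times, and 33 of the 34 were in both SETD5-V5 libraries at 48 h (97.1%, against 96.7% of 18642 such regions over the genome). A further 5 were induced (both libraries at 48 h, neither at 0 h), 2 at Myc, 2 at Ccnd1 and 1 at Cdkn2c, and 8 were lost, 3 at Ccnd3 and 1 each at Ccnd1, Ccnd2, Ccne1, E2f1 and Rb1. Both induced regions at Myc were absent from both SETD5-V5 libraries at 48 h, whereas 1 at Ccnd1 and that at Cdkn2c were present in both. Over the genome 24.2% of 5863 induced regions were absent from both and 64.4% present in both. All 8 lost regions carried H3K4me1 at 0 h, against 60.7% of 7472 lost regions over the genome, and none was in both SETD5-V5 libraries at 48 h, against 23.4%. With 5 and 8 regions these shares are descriptions only.

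Of the merged regions, 45 contain no annotated start. Their central 300 bases matched the E-box in 5 (11.1%, against 3.36% of 40481 such regions over the genome), C/EBP in 5 (11.1%, 16.3%), AP-1 in 4 (8.89%, 13.0%) and TEAD in 7 (15.6%, 18.5%). E2F and CRE letters were in none (1.62% and 0.185%). No induced region held any of the 6 motifs in this window.

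A list of 32 further genes of the cell cycle was tested in the same fit, 31 of them with enough islands. In empty-vector cells 8 rose between 0 h and 48 h and 5 fell, 41.9% of the 31 against 36.6% of all windows, which is near the background. Tfdp1, the partner of E2F factors in DNA binding, rose from 1.47% (A) and 1.15% (B) of its window to 12.1% and 11.5% (10.5 points, SE 0.750, limma adjusted p = 0.000145). Cdc20, the activator of the anaphase-promoting complex, rose from 6.32% and 6.70% to 15.1% in both (8.62 points, SE 0.932, adjusted p = 0.000533). The others that rose were Cdk6, Cdkn1c, E2f5, Rbl1, Cdc25a and Mycl1, and those that fell were Ccna1, Cdkn2d, E2f6, Rbl2 and Tfdp2. CDK inhibitors (Cdkn1c and Cdkn2d) and E2F factors (E2f5 and E2f6) were thus found in both directions.

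In SETD5-V5 cells 6 of the 31 rose, Tfdp1, Cdc20, Rbl1 and Cdkn1c among them with Ccne2 and E2f8, and 3 fell, Ccna1, E2f3 and Tfdp2 (29.0% of the 31, against 26% of all windows). At 48 h the vectors differed at 5 of the 31 (16.1%, against 15.5%), Cdkn1c, Cdkn2d and E2f6 being higher and Tfdp1 and Mycl1 lower in SETD5-V5 cells, and at 0 h at E2f8 alone, which was lower (3.23%, against 1.79%). The change itself differed between vectors at Cdkn1c and E2f6 (6.45%, against 4.33%). E2f6, a repressor of E2F targets, fell from 23.4% and 18.8% of its window to 7.26% and 8.12% with the empty vector, but measured 21.1% and 23.8% at 0 h and 24.5% and 24.7% at 48 h in SETD5-V5 cells (difference of the changes 15.6 points, SE 2.68, limma adjusted p = 0.0262). Cdkn1c, which encodes the CDK inhibitor p57, had no island at 0 h and was covered over 2.87% and 2.48% at 48 h with the empty vector and 5.98% and 5.59% in SETD5-V5 cells (difference of the changes 3.12 points, SE 0.446, adjusted p = 0.0175). Each of these calls was lost when 6 of the 8 libraries were left out in turn. Over all 8 of these fits the differences lay between 2.92 and 3.31 points for Cdkn1c and between 13.3 and 17.9 points for E2f6. Neither was called with the number of islands or with 20 kb on each side (5.85 and 6.45 points, limma adjusted p = 0.0658 and 0.147). E2f6 was also not called without the filter or with the replicate block. Cdkn1c was not called with equal numbers of islands, at or above the median score or on the log2 scale.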

How the data were processed

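ChIP-seq island lists of 16 libraries were used as deposited. The authors aligned reads cut to 36 bases against mm9 (ELAND or Bowtie2), and SICER then called islands in every library separately with a window of 200 bp, an E-value of 100 and a gap of 400 bp (H3K27ac, H3K4me1) or 600 bp (SETD5). The deposited lists give the position and the SICER score of each island, where a higher score is stronger enrichment. Scores were used only as ranks within a list, and no list gives counts or depth.

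The members and lists were chosen with earlier results of these data known. All 10 members, and called genes of the further cell cycle list, are named. Gene models were GENCODE vM1 (NCBIM37). Covered length per window was tested with limma 3.58.1 (R 4.3.3, with trend and 2 or 4 group means). A check on simulated data used independent noise for each window and library. It therefore cannot show how shifts shared by a whole list affect the calls. Where a library is left out, the lone sample is assumed to vary like the others. Libraries A and B were separate biological replicates in the study. Their shared letters were not treated as pairs (correlation of A − B between groups -0.28 to 0.41). Alternatives were equal list lengths, a median score minimum, 20 kb windows, other scales, no filter and a replicate block. Motifs and sequences were read from the mm9 genome.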

Additional observations from a re-analysis of the deposited data

Results flagged for a closer look

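At the start of Rb1 the H3K27ac island moved in opposite directions in the 2 vectors, with no overlap between the times in either. Its mean length was 4.5 kb greater at 48 h with the empty vector and differed by -3.5 kb in SETD5-V5 cells. A neighbouring island joined it or split from it: summed over the merged region at the start, the lengths were 5.4 and 5.2 kb and then 6.6 and 6.4 kb with the empty vector, and 5.6 kb in both and then 4.6 and 5.4 kb in SETD5-V5 cells. The difference between the vectors was not tested.

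Among the further cell cycle genes, the 48 h change in H3K27ac coverage differed between vectors at E2f6 (15.6 points of the window, limma adjusted p = 0.0262) and Cdkn1c (3.12 points, adjusted p = 0.0175), tested as the difference of the changes. The vectors had similar E2f6 values at 0 h and separate ones at 48 h, whereas Cdkn1c gained with both and more in SETD5-V5 cells. Both calls were lost in 6 of the 8 fits with 1 library left out. They were also lost with the number of islands and with 20 kb on each side, where the E2f6 difference was 6.45 points. Each was lost under further settings as well.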

How the results depend on the processing

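The number of members called moved with the processing. For 48 h against 0 h with the empty vector it was 2 and became 1 with equal numbers of islands per list (E2f1), with the number of islands (Ccnd3) and without the filter (Ccne1), and 0 to 2 with 1 library left out. In SETD5-V5 cells it was 3 and became 1 with equal numbers of islands (E2f1), 1 with islands at or above the median score (Rb1) and 1 with the replicate block (E2f1), and 1 to 2 with 1 library left out. Between vectors at 48 h it was 0 and became 1 with equal numbers (Ccnd1) and 2 at or above the median score (Ccnd1 and Myc), and 0 to 1 with 1 library left out. For the difference of the changes it was 0 and became 1 (Myc) without the empty-vector 48 h B library. It was 0 between vectors at 0 h and for SETD5-V5 under every alternative run. The cause of these moves was not tested.

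Signs turned for Ccne1 with the empty vector at or above the median score (1.46 points, limma adjusted p = 0.190) and, counting islands, for Rb1 (0.50 islands, adjusted p = 0.959) and Ccnd3 (-3.50 islands, adjusted p = 0.00350) in SETD5-V5 cells. Regions lost in the windows went from 8 to 2 with islands at or above the median score, and no Myc region was then induced. The replicate block kept the count of 2 with the empty vector and the counts of 0. The same-letter pairs correlated between -0.28 and 0.26 for H3K27ac and at 0.41 for V5.

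Over all windows, calls went from 6535 to 3188 with the number of islands (empty vector over time), from 320 to 700 with the number of islands, 631 at or above the median score, 212 with the replicate block and 175 without the filter (vectors at 0 h), and from 2770 to 1739 and 1546 with the number of islands and without the filter (vectors at 48 h). The difference of the changes went from 774 to 1337 at or above the median score, 1253 with the number of islands, 442 with 20 kb windows, 417 with the block and 390 without the filter. V5 calls went from 0 to 3060 on the log2 scale, 1189 with the number of islands and 309 without the 0 h A library. With 1 library left out, calls lay between 2407 and 4698 for SETD5-V5 cells over time (4640 with all libraries), 14 and 205 for vectors at 0 h, 840 and 2548 for vectors at 48 h, and 0 and 1179 for the difference of the changes, so the background shares move as well. Of the calls between vectors at 48 h, 39.2% were higher in SETD5-V5 cells, against 24.6% with equal numbers and 76.1% with the number of islands. At 0 h this share was 45.3%, against 27.8% and 76.1%. For the empty vector over time it was 65.5%, against 52.8% with the number of islands. For the difference of the changes it was 34.2%, against 47.3% on the log2 scale and 53.5% with the number of islands. The promoter count over any annotated start was chosen after seeing the data.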
